A study of Mus musculus with 9 samples.

Results

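The genes described here are the 5 neuronal intermediate filament genes Nefl, Nefm, Nefh, Ina and Prph, which were chosen by name and make up 5 of the 21457 genes in the expression table of spinal cholinergic nuclei. All 5 were in the table, and their levels were followed over 3 classes and 21 clusters of nuclei and over the regions of the cord. Nuclei came from 12 mice aged 8 weeks with the genotype Chat-iCre:+/wt; SUN-SfGFP:+/wt, in which Chat-IRES-Cre switched on the nuclear envelope protein Sun1-sfGFP, and GFP+ nuclei were sorted. The mice were pooled by 4 into 3 pools, 1 of 2 males and 2 females (replicate 1), 1 of males (replicate 2) and 1 of females (replicate 3), and each pool was cut into cervical, thoracic and lumbar/sacral cord, which gave 9 libraries. No mouse was treated, and all groups carried the same transgenes. The Cre marks every cell that has ever expressed Chat, and of the sorted nuclei only the 16042 that were cholinergic are described: 5054 of skeletal motor neurons (MNs), 5613 of visceral MNs and 5375 of cholinergic interneurons.

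Neurofilaments are the intermediate filaments of neurons. They are built from a light, a medium and a heavy subunit, encoded by Nefl, Nefm and Nefh, and fill the axons of large neurons, whose calibre depends on them. Ina encodes alpha-internexin, which joins them in many central neurons and is known for its expression in developing neurons. Prph encodes peripherin, a filament protein of neurons whose axons leave the central nervous system, motor neurons among them.

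In GRCm38, Nefl was annotated at chr14:68083863-68089095 on the plus strand, with 4 exons. Nefm was annotated at chr14:68082590-68124846 on the minus strand, because 1 of its 2 transcripts runs through the whole of Nefl on the other strand, and the shorter transcript begins at the same place and spans 5564 bases in 3 exons. Nefh lay at chr11:4938754-4948064 on the minus strand with 4 exons, Ina at chr19:47014698-47025327 on the plus strand with 3 exons and Prph at chr15:99055174-99058978 on the plus strand with up to 9 exons. The start of Ina shared 456 bases with Nt5c2 on the other strand. Reads were counted over whole genes, introns included. Whether the counting used the strand is not given in the sources used here, so a share of the Nefl reads and Nefm reads counted for the other gene was not tested.

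The promoters of Prph and Ina are shown because RefSeq promoter sequences of GRCm38.p6 were at hand for only these 2 of the 5 genes. A link between these sequences and the levels was not tested. The 250 bases before the RefSeq start of the gene, which for Ina lies ahead of the start annotated above, are given 5′ to 3′ on the plus strand (chr15:99054924-99055173 for Prph and chr19:47014431-47014680 for Ina). Capitals mark matches on either strand to TATAAA, known as the TATA box, and to GGGCGG, known as the GC box, and CCAAT was searched too. The matches do not overlap.
Prph: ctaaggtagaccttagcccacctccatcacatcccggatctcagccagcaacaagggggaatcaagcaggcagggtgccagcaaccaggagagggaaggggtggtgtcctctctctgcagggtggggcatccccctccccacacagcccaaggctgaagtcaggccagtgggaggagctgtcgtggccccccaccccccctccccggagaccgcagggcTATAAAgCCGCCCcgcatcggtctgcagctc
Ina: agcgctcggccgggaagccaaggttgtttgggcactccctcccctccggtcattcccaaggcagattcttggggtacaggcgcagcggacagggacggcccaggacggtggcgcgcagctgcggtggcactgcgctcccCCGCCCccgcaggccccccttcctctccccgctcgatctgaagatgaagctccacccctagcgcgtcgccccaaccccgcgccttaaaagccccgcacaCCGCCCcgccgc
The Prph window held TATAAA from base -31 to base -26, counted from that start, and a GC box on the other strand right after it. The Ina window held 2 GC boxes on the other strand and no TATAAA or CCAAT. Over all 32851 promoters of this length in the table, 12.4% held TATAAA, 33.8% held CCAAT and 32.7% held GGGCGG on either strand. The Ina window was 70.8% G and C with 25 CG pairs and the Prph window 65.2% with 7, against a median of 52.4% and 6 pairs over all promoters.

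Levels are given as CPM, the corrected counts of a gene in the deposited table, summed over the nuclei of a class or cluster in a library, per 1000000 such counts of all genes. Median totals ran from 4712 to 16127 corrected counts per nucleus over the 9 libraries, and 33 cell barcodes occurred in 2 libraries each. The classes carried their own markers, with Tns1 at 381 CPM in skeletal MNs, Zeb2 at 387 CPM in visceral MNs and Pax2 at 211 CPM in interneurons, each at 31.3 CPM or less in the other classes. A pair of libraries went against their labels. Hoxc5, a gene of the Hox code that marks position along the cord, was at 25.4 and 22.5 CPM in the cervical libraries of replicates 1 and 3 but at 73.3 CPM in the library labelled cervical replicate 2. It was at 85.3 and 84.2 CPM in the thoracic libraries of replicates 1 and 3 but at 13.9 CPM in the library labelled thoracic replicate 2. Lumbar/sacral libraries held 81.1 to 93.6 CPM of Hoxc5 and were the only ones with Hoxd11. In the library labelled cervical replicate 2, the 71 nuclei of cluster S2 also stood apart, with Tns1 at 80.5 CPM against 311 to 450 CPM in S2 of the other libraries and with Zeb2 at 133 CPM against at most 9.35 CPM and Pax2 at 45.1 CPM against at most 14.3 CPM. Fits between classes, skeletal types and regions are given with and without these libraries, and fits between pools were not run without both.

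Between classes, Nefl, Nefm, Nefh and Prph were highest in skeletal MNs, and Ina was lowest there. All 5 genes passed the test between skeletal and visceral MNs, 4 of them higher and Ina lower in skeletal MNs. Of 11292 tested genes 66.7% passed there, 30.1% higher and 36.7% lower. All 5 also passed between skeletal MNs and interneurons, where 59.5% of all genes did, 31.7% higher and 27.8% lower. Between visceral MNs and interneurons 4 of the 5 passed, all higher in visceral MNs, where 51.4% of all genes did, 31.4% higher and 19.9% lower. Passing the test is therefore common, and the sizes are given below. The class labels were drawn by the authors from the same nuclei and genes, so these p-values describe how far the labels part the genes, not a finding on new nuclei. They come from limma on log2(CPM + 5) with a term for the library, adjusted by Benjamini and Hochberg over all genes tested, and fold changes on that scale understate the change of low genes.

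**Figure D1:**
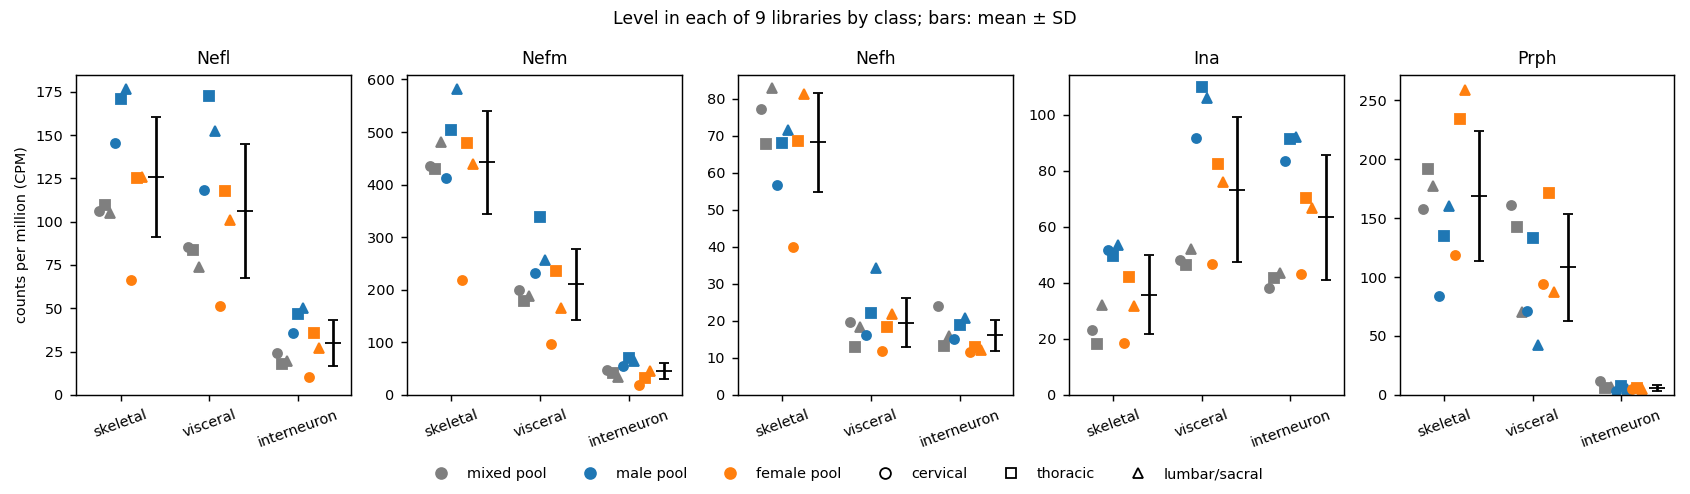
Level of each gene in CPM on a linear axis, with 1 point for each of 9 libraries per class (colour for the pool, shape for the region) and bars for mean ± SD. Nefm in skeletal MNs sat between 219 and 581 CPM against 18.6 to 69.4 CPM in interneurons, while Ina was higher in visceral MNs than in skeletal MNs in every library.

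Nefl, the light subunit on which the others assemble, ran from 66.6 CPM over a median of 125 to 177 CPM in skeletal MNs. In visceral MNs it ran from 51.1 over 101 to 172 CPM, and in interneurons from 10.6 over 27.05 to 50.2 CPM. The ranges of the MN classes overlapped almost wholly, and those of MNs and interneurons did not meet. Within libraries Nefl was higher in skeletal than in visceral MNs in 8 of 9, by a log2 fold change of 0.26 ± 0.06 (SE, adjusted p = 0.000415). Against interneurons it was higher by 1.96 ± 0.06 in skeletal MNs (adjusted p = 4.84e-17) and by 1.70 ± 0.06 in visceral MNs (adjusted p = 6.76e-16), in 9 of 9 libraries each.

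Nefm, the medium subunit, was graded over all classes. Its lowest, median and highest levels were 219, 439 and 581 CPM in skeletal MNs, 96.6, 200 and 339 CPM in visceral MNs and 18.6, 45.3 and 69.4 CPM in interneurons. It was higher in skeletal than in visceral MNs by 1.08 ± 0.08 (SE, log2, adjusted p = 2.73e-10) and higher in visceral MNs than in interneurons by 2.10 ± 0.08 (adjusted p = 1.06e-14), each in 9 of 9 libraries. From skeletal MNs to interneurons the difference was 3.18 ± 0.08, or 9.09-fold (adjusted p = 9.92e-18).

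Nefh, the heavy subunit with the long phosphorylated tail, set skeletal MNs apart from the other classes. Skeletal MNs held 39.9 CPM at the lowest, 68.6 at the median and 82.9 at the highest, and no library of another class reached the lowest of these. Visceral MNs ran from 11.8 over 18.4 to 34.2 CPM and interneurons from 11.7 over 15.0 to 24.1 CPM, ranges that overlapped. Nefh was 3.02-fold higher in skeletal than in visceral MNs (log2 1.60 ± 0.10, adjusted p = 3.70e-12) and 3.47-fold higher than in interneurons (log2 1.80 ± 0.10, adjusted p = 6.53e-13). The difference of 0.20 ± 0.10 between visceral MNs and interneurons missed the threshold (adjusted p = 0.0861), with a 95% interval from 0.00 to 0.40, and passed it without cervical replicate 1 (0.26, adjusted p = 0.0411).

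Ina went the other way from the neurofilament subunits. It ran from 18.3 over 32.2 to 53.5 CPM in skeletal MNs, from 46.2 over 76.1 to 110 CPM in visceral MNs and from 38.3 over 66.6 to 92.0 CPM in interneurons. The ranges overlapped between libraries, but within every library skeletal MNs held the least. Ina was lower in skeletal than in visceral MNs by a log2 fold change of -0.95 ± 0.06 (SE, adjusted p = 3.45e-12) and lower than in interneurons by -0.76 ± 0.06 (adjusted p = 1.78e-10). Visceral MNs exceeded interneurons by 0.19 ± 0.06 in 9 of 9 libraries (adjusted p = 0.00728), and this call was lost when libraries were scaled by the median of ratios (adjusted p = 0.108).

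Prph had the widest difference between any classes of the 5 genes. It ran from 84.1 over 160 to 259 CPM in skeletal MNs and from 42.1 over 94.5 to 172 CPM in visceral MNs, which overlapped. In interneurons it ran from 3.16 over 5.54 to 11.7 CPM, on 8 to 60 summed counts per library. Skeletal MNs exceeded interneurons by 3.92 ± 0.17 on the log2 scale (adjusted p = 2.44e-14) and visceral MNs exceeded them by 3.25 ± 0.17 (adjusted p = 8.63e-13). Between skeletal and visceral MNs Prph was higher in skeletal MNs in 8 of 9 libraries by 0.67 ± 0.17 (adjusted p = 0.00170). This gap was widest in lumbar/sacral libraries, at 178, 160 and 259 CPM in skeletal against 70.7, 42.1 and 87.6 CPM in visceral MNs. Cervical libraries held 158, 84.1 and 119 CPM against 161, 70.9 and 94.5 CPM. Thoracic libraries held 191, 135 and 234 CPM against 142, 133 and 172 CPM (replicates 1 to 3 throughout). Sensory neurons also make peripherin, and their markers were near 0: Avil and Scn10a together held at most 3.17 CPM in skeletal and 4.25 CPM in visceral MNs. The 5 oligodendrocyte markers together held 54.9 to 92.5 CPM in skeletal MNs, 36.5 to 61.6 CPM in visceral MNs and 37.7 to 54.9 CPM in interneurons, and their part in the class differences was not tested.

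Counting nuclei in which a gene was detected, with 1 corrected count or more, gave the same order of classes. Nefm was counted in 92.9% ± 5.83 of skeletal nuclei, 72.4% ± 13.7 of visceral nuclei and 27.6% ± 12.4 of interneurons (mean ± SD, n = 9). For Prph the figures were 71.2% ± 10.4 in skeletal, 47.7% ± 17.9 in visceral and 4.49% ± 1.52 in interneuron nuclei. Free RNA can add counts to any nucleus. Interneurons had a median total of 6986 corrected counts against 7393 in skeletal and 7519 in visceral MNs, and free RNA was not told apart from expression in their 4.49%. Nefh was counted in 41.6% ± 6.71, 13.8% ± 4.43 and 12.1% ± 4.78 of nuclei, and Nefl in 62.5% ± 15.1, 52.9% ± 16.9 and 20.2% ± 10.6. Ina was counted least often in skeletal nuclei, in 26.3% ± 15.4 against 42.7% ± 17.1 of visceral and 38.0% ± 15.7 of interneuron nuclei. Of the 15 class differences in these shares, 14 passed when signs were flipped exactly over libraries, on both sides (adjusted p = 0.00781, from an exact p of 0.00391, the smallest that 9 libraries allow). The difference of 1.72 points in Nefh between visceral MNs and interneurons did not (exact, adjusted p = 0.245). Shares were not tested for genes other than these 5, so no share over all genes stands beside this count. The class labels were drawn from the same nuclei, so these p-values too describe the labels. After thinning to 4600 counts a nucleus, Prph was counted in 51.9%, 34.7% and 2.56% in the same order of classes, with 194 skeletal, 329 visceral and 861 interneuron nuclei too shallow to be thinned.

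Among themselves the genes did not move by equal amounts. Between skeletal and visceral MNs, within libraries, the difference of Nefm exceeded that of Nefl by 0.82 ± 0.17 (SD over 9 libraries, log2) and the difference of Nefh exceeded that of Nefl by 1.33 ± 0.28, in 9 of 9 libraries each (exact sign-flip test, adjusted p = 0.00488). The difference of Nefh also exceeded that of Nefm, by 0.51 ± 0.33 in 8 of 9 libraries (exact, adjusted p = 0.00938). So the step from visceral to skeletal MNs grew from the light to the medium to the heavy subunit. Between visceral MNs and interneurons the order was another one: the difference of Nefm exceeded that of Nefl by 0.40 ± 0.31, and that of Nefl exceeded that of Nefh by 1.50 ± 0.37, in 9 of 9 libraries each (exact, adjusted p = 0.00488). Nefh and Ina differed there by 0.01 ± 0.30 (exact, adjusted p = 0.965). Of 10 such comparisons between the genes for each pair of classes, 8 passed between skeletal and visceral MNs, 9 between skeletal MNs and interneurons and 9 between visceral MNs and interneurons.

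**Figure D2:**
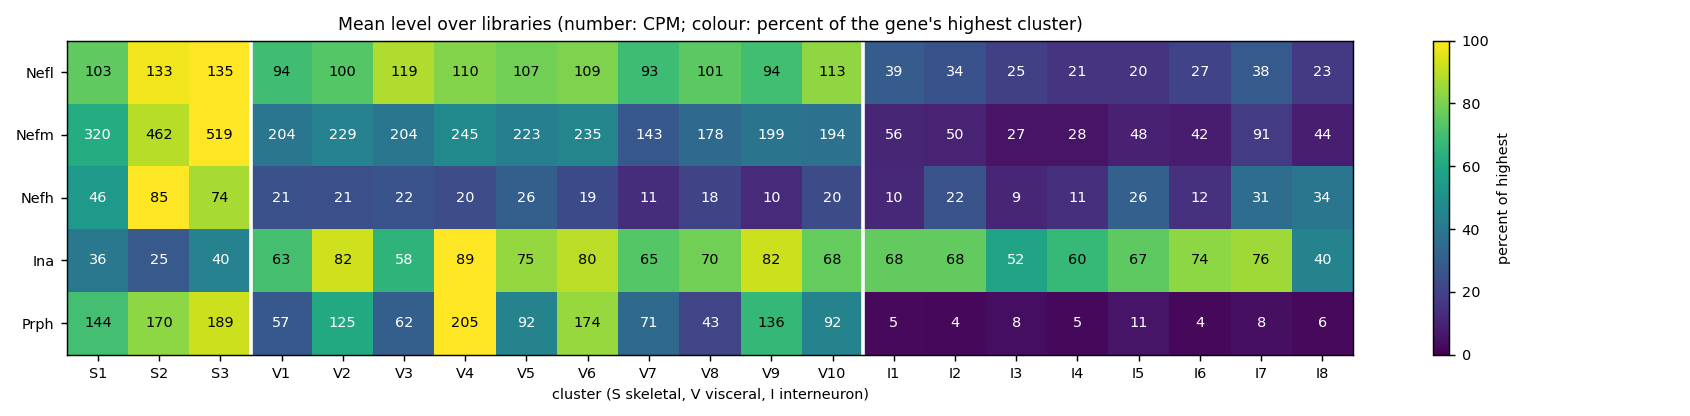
Mean level over libraries of the 5 genes in the 21 clusters, 3 skeletal (S), 10 visceral (V) and 8 interneuron (I), with CPM printed in each cell and the colour giving the percent of the gene's highest cluster. Nefl, Nefm and Prph fall at the border of V and I, and Nefh falls at the border of S and V. Ina is lowest in S1 to S3, with I8 level with S3 (39.6 CPM each).

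Over the 21 clusters, each over 3 to 9 libraries with at least 10 nuclei, the levels of neighbours in the order seldom differed beyond their spread. Of 100 pairs of neighbours over the 5 genes, 11 differed by more than the SD of the difference over libraries, 10 had an exact sign-flip p under 0.05 and 0 passed after adjustment. Orders within a class are therefore given as means, not as ranks.

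Nefl was highest in S3 at 135 ± 42.1 CPM (SD, n = 9) and S2 at 133 ± 40.2 CPM. Visceral clusters followed between 119 CPM in V3 and 93.5 CPM in V7, with S1 at 103 CPM among them, and interneurons lay between 39.2 CPM in I1 and 20.3 CPM in I5. The step from V7 to I1 was the widest between neighbours, 1.15 ± 0.39 (SD) on the log2 scale in 9 of 9 libraries (exact p = 0.00391, adjusted p = 0.195 over 100 pairs). Nefm had 3 tiers: S3, S2 and S1 at 519 ± 117, 462 ± 120 and 320 ± 87.0 CPM, visceral clusters from 245 CPM in V4 to 143 CPM in V7, and interneurons from 91.2 CPM in I7 to 27.3 CPM in I3.

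Nefh was highest in S2 at 85.3 ± 29.1 CPM (SD, n = 9), S3 at 74.0 ± 15.8 CPM and S1 at 45.8 CPM. Below them, interneuron and visceral clusters were mixed. I8 held 33.5 ± 12.5 CPM (n = 8), I7 30.5 ± 8.33 CPM (n = 6) and I5 26.2 ± 5.18 CPM, ahead of the highest visceral cluster, V5, at 26.0 ± 13.5 CPM (n = 7). The lowest were I3 at 9.30 CPM, I1 at 9.69 CPM, V9 at 10.3 CPM and V7 at 11.1 CPM. The mean of I8 was 3.60 times that of I3, the widest ratio among interneuron clusters of the 5 genes.

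Ina was highest in V4 at 88.9 ± 38.7 CPM and had means of 57.7 CPM or more in all visceral clusters. In interneurons it ran from 76.4 CPM in I7 to 39.6 CPM in I8, so that I8, which led the interneurons in Nefh, was the lowest of them in Ina. S3, S1 and S2 were last at 39.6, 35.6 and 24.7 CPM.

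Prph was spread most within visceral MNs. V4 held 205 ± 59.2 CPM (SD, n = 9), more in the mean than any skeletal cluster, and V6 174 ± 93.5 CPM (n = 8), beside 189 CPM in S3, 170 CPM in S2 and 144 CPM in S1. V9 and V2 followed at 136 and 125 CPM. V7, V3, V1 and V8 held 70.7, 62.1, 56.6 and 42.6 CPM, which makes the highest visceral cluster 4.82 times the lowest. Within the 3 libraries that held both, V4 exceeded V8 by 2.61 ± 0.71 on the log2 scale. Interneuron clusters stayed between 4.48 CPM in I2 and 11.3 CPM in I5.

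Across the mean log2 levels of the 21 clusters, Pearson's r was 0.96 between Nefl and Nefm, 0.93 between Nefm and Prph and 0.92 between Nefl and Prph. These points share libraries and fall into 3 classes, so r is a description of the step between classes. Among the 10 visceral clusters alone r was 0.67, 0.49 and 0.22 for the same pairs. Nefh and Ina ran in opposite directions over the 21 clusters, with r of -0.71, and Nefh and Nefl had an r of 0.35. Ina and Prph had an r of -0.15 over all clusters and 0.72 over the visceral ones. Of 11287 other genes tested, those whose pattern over clusters was most like that of Nefl were Tspan18 (r = 0.94), Pcbp3 (0.91) and Map1b (0.90). For Nefm they were Tspan18 (0.93), Igsf21 (0.92) and Prune2 (0.91). For Nefh they were Tesc (0.91), Rab37 (0.91) and Zfp101 (0.90), all at 53.7 CPM or more in skeletal MNs and at 13.5 CPM or less in the other classes. For Ina they were Simc1 (0.91), Dtx3 (0.89) and Dnajc13 (0.87), and for Prph Hspa12b (0.93), Mcam (0.92) and Snx10 (0.90).

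Within skeletal MNs the labels separate alpha MNs (cluster S2, 1285 nuclei), which drive the force-generating muscle fibres, gamma MNs (S3, 2241 nuclei), which drive the fibres of muscle spindles, and a group called Type 3 (S1, 1528 nuclei). The 3 neurofilament subunits were lower in Type 3 MNs than in the others, and Ina was lowest in alpha MNs. Between alpha and Type 3 MNs 4 of the 5 genes passed, where 25.4% of 11465 tested genes did. Between Type 3 and gamma MNs 3 of the 5 passed, with 19.8% of all genes, and between alpha and gamma MNs 1 of the 5, with 31.1%. These cluster labels were also drawn by the authors from the same nuclei and genes. The p-values between skeletal types therefore describe the labels, not a finding on new nuclei.

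Nefh in Type 3 MNs ran from 26.3 over 52.1 to 56.7 CPM, in alpha MNs from 31.4 over 93.0 to 133 CPM and in gamma MNs from 35.8 over 77.0 to 89.4 CPM. It was higher in alpha than in Type 3 MNs by 0.79 ± 0.16 (SE, log2, adjusted p = 0.000499) and lower in Type 3 than in gamma MNs by -0.64 ± 0.16 (adjusted p = 0.00404). Nefm was higher in alpha than in Type 3 MNs by 0.53 ± 0.09 (adjusted p = 8.80e-05) and lower in Type 3 than in gamma MNs by -0.70 ± 0.09 (adjusted p = 1.56e-06). For Nefl the same differences were 0.37 ± 0.09 (adjusted p = 0.00431) and -0.38 ± 0.09 (adjusted p = 0.00388). Ina was lower in alpha than in gamma MNs by -0.73 ± 0.18 (adjusted p = 0.00207) and than in Type 3 MNs by -0.60 ± 0.18 (adjusted p = 0.0125). The latter call was lost without lumbar/sacral replicate 3 (-0.49, adjusted p = 0.0547) or without thoracic replicate 2 (adjusted p = 0.0532). Between alpha and gamma MNs the differences were -0.01 ± 0.09 for Nefl, -0.17 ± 0.09 for Nefm and -0.28 ± 0.17 for Prph, none past the threshold, with 95% intervals of -0.20 to 0.19, -0.36 to 0.02 and -0.64 to 0.08. Ina differed by -0.13 ± 0.18 between Type 3 and gamma MNs (95% interval -0.50 to 0.24).

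Values of S2 in the library labelled cervical replicate 2 lay outside those of the other libraries for 3 genes. Prph was at 26.5 CPM there against 141 to 301 CPM in S2 of the other 8, Nefh at 31.4 CPM against 58.6 to 133 CPM, and Ina at 72.6 CPM against 10.5 to 38.2 CPM. These are the same 71 nuclei in which Zeb2, a marker of visceral MNs, and Pax2, a marker of interneurons, were raised and Tns1 was low, and the part of other nuclei in these values was not tested. Without that library, Nefh was higher in alpha than in gamma MNs (0.33, adjusted p = 0.0180, against 0.14 ± 0.16 and adjusted p = 0.567 with it). Prph was then higher in alpha than in Type 3 MNs (0.33, adjusted p = 0.00191, against 0.09 ± 0.17 and 0.775 with it) and lower in Type 3 than in gamma MNs (-0.38, adjusted p = 0.000635, against -0.37 ± 0.17 and 0.165 with it). Calls over all genes moved too when single libraries were left out. They ran from 3051 to 4994 between alpha and gamma MNs, against 3560 with all libraries. Between alpha and Type 3 MNs they ran from 2414 to 4286 (2908 with all), and between Type 3 and gamma MNs from 1995 to 2829 (2274 with all).

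**Figure D3:**
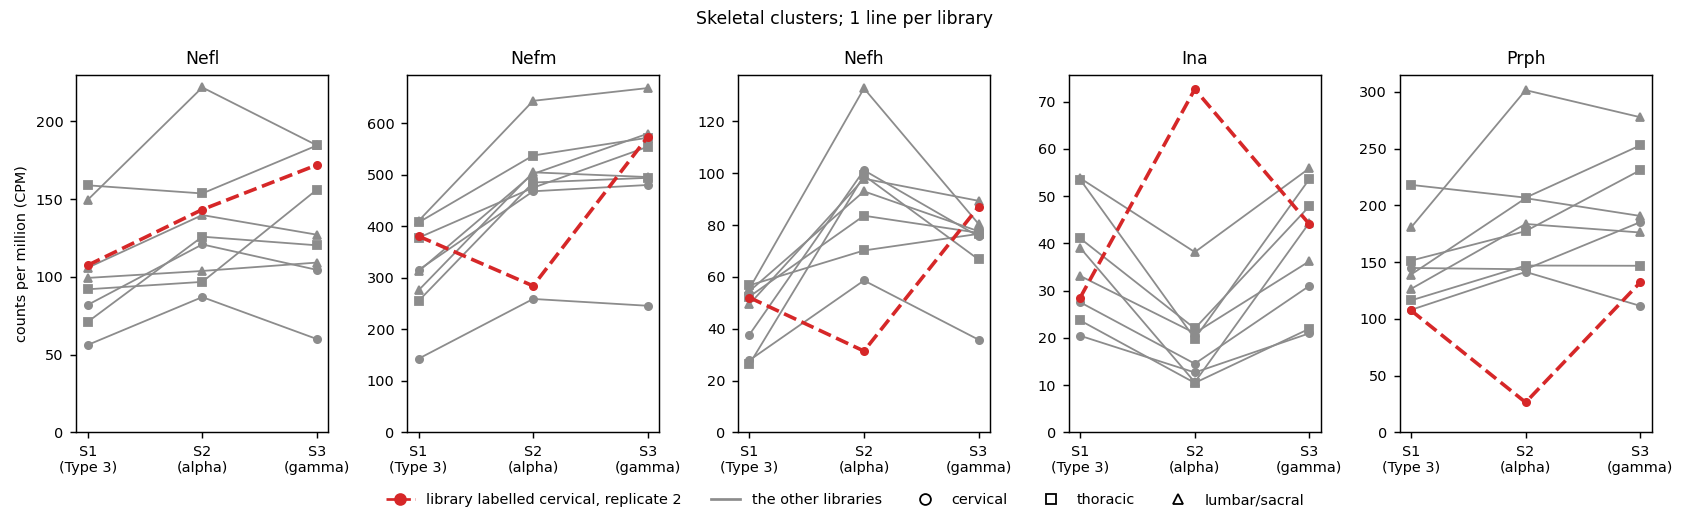
Level of the 5 genes in the 3 skeletal clusters in CPM, with 1 line for each library and the library labelled cervical replicate 2 dashed in red. Its S2 value is low for Nefh and Prph and high for Ina, while its S1 and S3 values lie within 1 CPM of the range of the other libraries.

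Without a term for the pool no regional difference in these genes passed the test, and with the pool as a replicate block Prph in visceral MNs did. In comparisons of lumbar/sacral with cervical and thoracic libraries, and of cervical with thoracic libraries, in S1, S2, S3, visceral MNs and interneurons, 0 of the 5 genes passed in limma without the block. Of all genes tested, 4.27% passed between lumbar/sacral and rostral visceral MNs, 0.0711% in S3 and 0.051% in interneurons, and 0% in S1, in S2 and in all comparisons of cervical with thoracic cord. Before adjustment, 3 of these differences were below the threshold of 0.05. They were Prph in visceral MNs and Nefm in S2 for lumbar/sacral cord (-0.89 and 0.43), and Nefm in S2 for cervical against thoracic cord, where -0.61 stood beside a median of -0.27 over all genes. By p they ranked 698 of 10031, 221 of 10387 and 338 of 10387 tested genes, in that order. Prph was below the filter on low values in interneurons and was not tested there. The cervical and thoracic comparisons include the pair of libraries that went against their labels, and without this pair no gene of the 5 passed either.

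Prph in visceral MNs had the largest difference between lumbar/sacral and rostral cord of the 5 genes in any of these groups. Lumbar/sacral libraries held 70.7, 42.1 and 87.6 CPM in replicates 1 to 3, cervical libraries 161, 70.9 and 94.5 CPM and thoracic libraries 142, 133 and 172 CPM. By the labels, all lumbar/sacral values were below all thoracic ones and overlapped with the cervical ones. The overlap rests on 70.9 CPM in the library labelled cervical replicate 2, of the pair that went against its labels. Without this pair, all lumbar/sacral values were below all rostral ones. Within each of the 3 pools the lumbar/sacral value was below both others. The difference from rostral cord was -0.89 ± 0.27 (SE, log2, 95% interval -1.51 to -0.28), with an adjusted p of 0.136. With the pool of mice as a replicate block the adjusted p was 0.0318, where 7.35% of all genes passed. In skeletal MNs of the lumbar/sacral libraries Prph held 178, 160 and 259 CPM. The difference between the classes in this regional effect, skeletal minus visceral, was 1.30 ± 0.22 (limma, adjusted p = 0.000467), where 9.73% of all genes passed and the other 4 genes did not. Which of the rostral libraries are cervical does not enter this contrast. It was 1.09 without V8 (adjusted p = 0.00379), and it missed the threshold without a term for the library (adjusted p = 0.0942).

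Visceral clusters had unlike shares in the regions, so Prph was also compared within them, a step added after its values were seen. V8 made up 30.9% of lumbar/sacral and 0.214% of cervical visceral nuclei and was not found in thoracic cord, and it held Prph at 14.2, 40.7 and 72.8 CPM. V6 and V9, both high in Prph, made up 14.2% and 4.97% of cervical, 12.8% and 6.69% of thoracic, but 2.0% and 0.267% of lumbar/sacral visceral nuclei. Left without V8, visceral MNs differed in Prph by -0.69 between lumbar/sacral and rostral cord (adjusted p = 0.393).

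Within V2, Prph was at 64.4, 24.5 and 52.0 CPM in lumbar/sacral libraries against 62.5 to 259 CPM in the 6 rostral ones, a log2 difference of -1.66 (exact permutation test, p = 0.0238, adjusted p = 0.417 over 35 comparisons). Within V5 it was at 51.4, 15.9 and 46.8 CPM against 110 to 159 CPM in 4 rostral libraries, with no overlap (-1.79, exact p = 0.0286, the smallest that 35 groupings allow). Within V6 the 2 lumbar/sacral libraries held 0 and 103 CPM, on 13 and 10 nuclei, against 140 to 281 CPM in the rostral ones. In V3 the values overlapped, with means of 34.5 CPM in lumbar/sacral and 75.9 CPM in rostral libraries (-0.83, exact p = 0.286). V1, V4 and V7 held no lower values in lumbar/sacral libraries beyond the spread: V4 held 268, 189 and 288 CPM in lumbar/sacral libraries against 115 to 271 CPM (0.45, exact p = 0.155), and V7 held 35.3 to 87.5 CPM against 25.9 to 110 CPM. Over the 5 genes in these 7 clusters 0 of 35 comparisons passed after adjustment, and 4 had an unadjusted p under 0.05. They were Prph in V2, V5 and V6 and Nefh in V4, which was higher in lumbar/sacral libraries with no overlap (25.5 against 17.3 CPM, exact p = 0.0476).

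**Figure D4:**
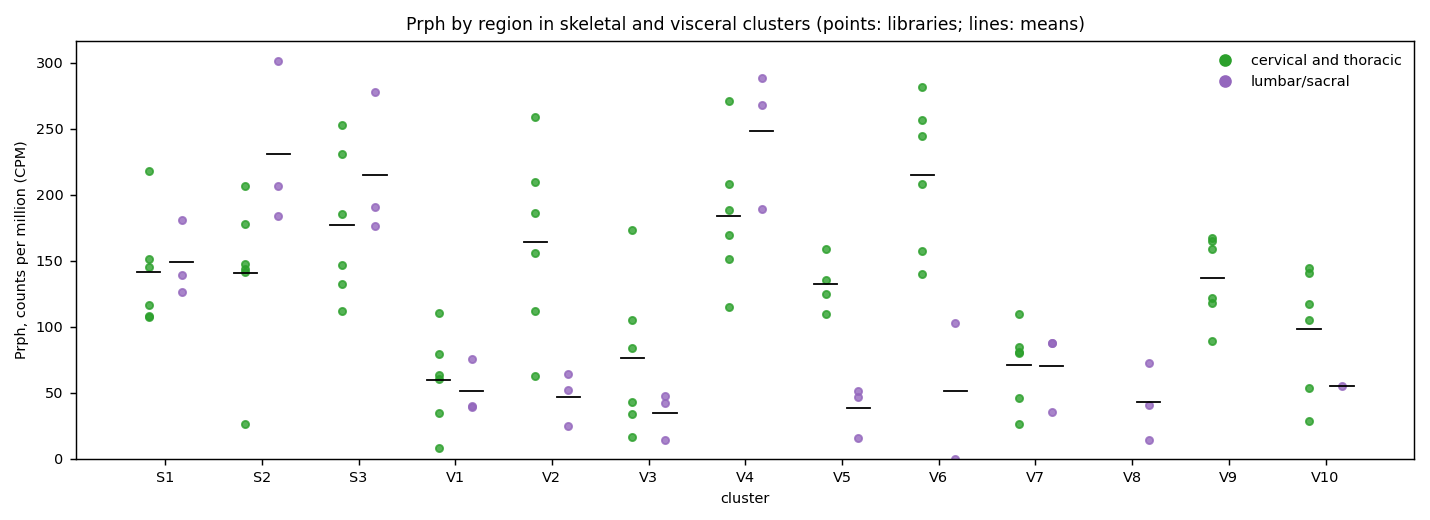
Prph in CPM on a linear axis in the skeletal and visceral clusters, with 1 point for each library, cervical and thoracic in green and lumbar/sacral in purple, and lines at the means. Lumbar/sacral points lie low in V2, V5 and V6 and among or above the rostral ones in S1 to S3 and V4.

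The pools of mice were compared as well, since each region came from the same 3 pools. In skeletal MNs the male pool held Ina at 51.9, 49.6 and 53.5 CPM, with regions in the order from cervical to lumbar/sacral cord, 18.5, 42.2 and 31.7 CPM in females and 23.3, 18.3 and 32.2 CPM in the mixed pool. The male pool did not overlap with the others, and the same held for Ina in visceral MNs and in interneurons. Nefl in skeletal MNs was at 145, 171 and 177 CPM in the male, 66.6, 125 and 126 CPM in the female and 106, 110 and 105 CPM in the mixed pool. Again the male pool lay above the others. Prph leaned the other way, at 84.1, 135 and 160 CPM in skeletal MNs of the male and 119, 234 and 259 CPM of the female pool. The mixed pool held 158, 191 and 178 CPM. In each region the male value was the lowest, but the ranges of the male pool and the others overlapped.

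With a term for the region, the female pool differed from the male pool in Nefl by -0.66 ± 0.16, -0.75 ± 0.15 and -0.84 ± 0.23 (SE, log2) over the classes in the order skeletal, visceral, interneuron. It differed in Ina by -0.72 ± 0.23, -0.58 ± 0.14 and -0.55 ± 0.14. In Prph it differed by 0.64 ± 0.11 in skeletal and 0.57 ± 0.16 in visceral MNs. None of the 5 genes passed in any class (limma, lowest adjusted p = 0.297), where 0.0725%, 0.0513% and 0.0521% of all genes did. Before adjustment, skeletal MNs had 4 genes of the 5 below 0.05 (all but Nefh), visceral MNs had all 5 and interneurons all 4 that were tested. Many other genes were below 0.05 as well. By unadjusted p in limma, Nefm in skeletal MNs (0.0476) ranked 1146 of 9660 tested genes. Nefh in visceral MNs (0.0482) ranked 1345 of 9744. Without cervical replicate 2 or cervical replicate 3, which leaves thoracic and lumbar/sacral cord to decide, 3 genes passed in skeletal MNs (Nefl at -0.46, Ina at -0.44 and Prph at 0.72), 2 in visceral MNs and 3 in interneurons. Calls over all genes rose as well, to 13.7% and 13.8% in skeletal MNs, 3.81% and 4.4% in visceral MNs and 13.5% and 14% in interneurons, without replicate 2 and without replicate 3 in that order. The male thoracic library that decides in these fits is the one labelled thoracic replicate 2, which went against its label. Pool fits without both libraries of that pair were not run. There is 1 pool of each sex, so sex and pool cannot be told apart, and the p-values measure the spread between libraries of the same mice. Malat1, a nuclear RNA, also differed between the pools, at 104597 to 124407 CPM in the male, 31119 to 34023 CPM in the mixed and 30335 (cervical), 96628 (thoracic) and 82976 CPM (lumbar/sacral) in the females. Cervical replicate 3, which had the lowest Malat1, also had the lowest Nefl, Nefm and Nefh in every class. It also had the lowest sum of ribosomal protein genes, 1163 CPM against 1388 to 1679 CPM in the other libraries, and the highest sum of mitochondrial genes, 1499.9 CPM against 285 to 1389 CPM. The mixed pool, with Malat1 nearly as low, held Nefm at 430 to 481 CPM in skeletal MNs against 219 CPM there. The part of RNA quality in these differences was not tested.

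**Figure D5:**
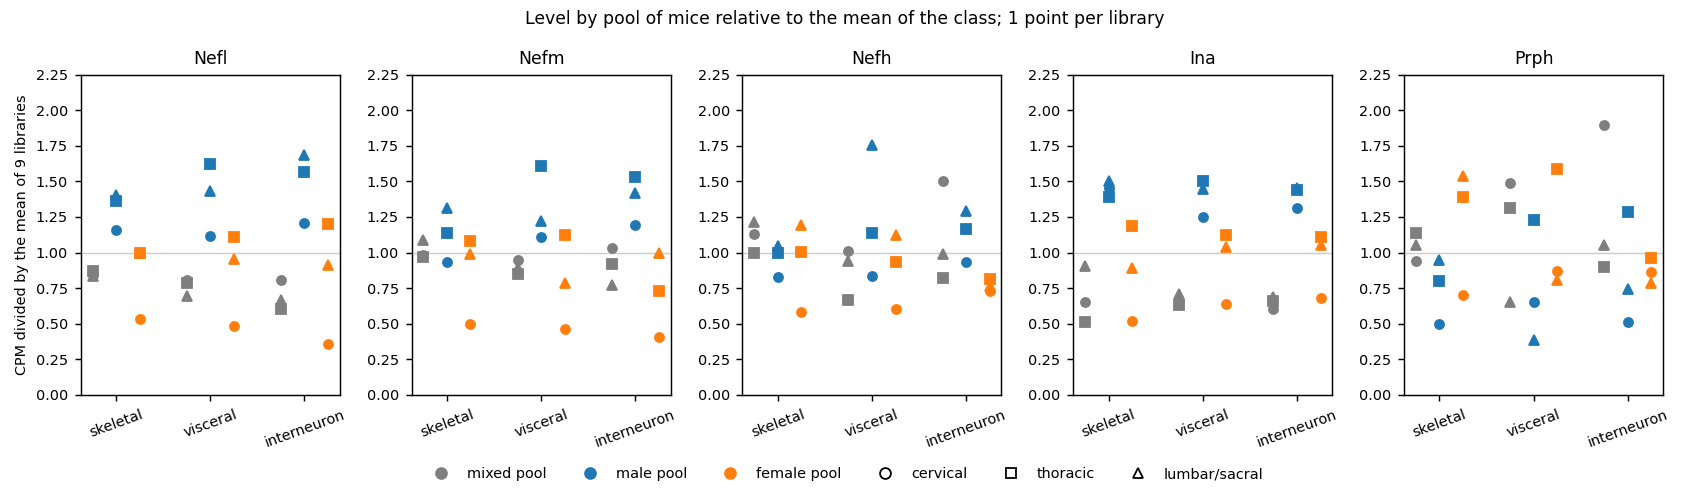
Level of each gene in each library divided by its mean over the 9 libraries of the class, by pool (colour) and region (shape). The male pool lies above 1 for Nefl and Ina in every class, and the female cervical library lies at the bottom for Nefl, Nefm and Nefh.

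Genes that work with these filaments were read from 4 lists of 56 genes, of which 54 were in the table and 51 passed the filter on low values in the class fit. Between skeletal and visceral MNs 21 were higher in skeletal MNs, 17 were lower and 13 did not pass. Of all genes 66.7% were called, 30.1% higher and 36.7% lower. The median log2 difference of the lists was 0.02 beside -0.04 over all genes tested. Genes of these lists with a log2 difference under 1 were named after their values were seen.

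Of 12 linkers and other intermediate filaments tested, 7 were higher and 2 lower in skeletal than in visceral MNs (all genes: 30.1% and 36.7%). The higher ones included Ank3 (0.58), an anchor of the axon's initial segment, Sptan1 (0.62), a spectrin, and Dst (0.31), a linker between filament systems. Vim, the intermediate filament of non-neuronal and young cells, was lower, at 1.22 CPM in skeletal and 12.3 CPM in visceral MNs (-1.42 ± 0.12, SE, adjusted p = 8.32e-10). Lmna, a filament of the nuclear lamina, was lower by -0.80.

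Of 13 tubulins and microtubule-associated proteins tested, 6 were higher and 5 lower in skeletal than in visceral MNs (all genes: 30.1% and 36.7%). Map1a (0.72) and Map2 (0.52), which bind microtubules, were among the higher. Tubb2b, a tubulin, was lower at 2.06 against 12.1 CPM (-1.26 ± 0.08, SE, adjusted p = 1.01e-11). Against interneurons, Map1b, whose pattern over clusters was also among those most like Nefl, was higher in skeletal MNs at 1228 against 607 CPM (1.01 ± 0.05, adjusted p = 1.56e-13).

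Of 9 transport motors tested, 3 were higher and 2 lower in skeletal than in visceral MNs (all genes: 30.1% and 36.7%). The kinesin heavy chains Kif5a (0.36), Kif5b (0.16) and Kif5c (0.54), which carry neurofilaments along axons, were all higher, and Myo5a (-0.61) and Kif3a (-0.48) were lower.

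Of 17 genes of turnover, phosphorylation, chaperones and mRNA binding tested, 5 were higher and 8 lower in skeletal than in visceral MNs (all genes: 30.1% and 36.7%). Hspb8, a small heat shock protein, was at 29.8 CPM in skeletal MNs, 8.47 CPM in visceral MNs and 1.25 CPM in interneurons, with a log2 difference of 1.36 ± 0.09 between the MN classes (SE, adjusted p = 1.22e-11). Trim2, a ubiquitin ligase that binds the light subunit, was higher by 0.90. Arhgef28, whose product binds the mRNA of Nefl, ran the other way with 22.6 CPM in skeletal MNs, 53.1 CPM in visceral MNs and 105 CPM in interneurons (-1.04 ± 0.11, adjusted p = 3.90e-08). Hspb1, another small heat shock protein, was higher in alpha than in Type 3 MNs, at 13.9 against 3.84 CPM (1.03 ± 0.20, adjusted p = 0.000292), the one gene of the lists with a log2 difference of at least 1 between skeletal types. Between regions and pools none of the listed genes passed, apart from Arhgef28 in visceral MNs, where 4.27% of all genes passed. Arhgef28 was at 71.9 CPM in lumbar/sacral and 43.7 CPM in rostral libraries (0.66, adjusted p = 0.0307). In the test of the class difference in the regional effect 4 of 51 passed, where 9.73% of all genes did.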

How the data were processed

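Single-nucleus RNA-seq (10x Genomics) of sorted GFP+ nuclei gave 9 libraries. Per the labels and methods, the authors counted reads with Cell Ranger 3.1.0 on a GRCm38 (mm10) pre-mRNA reference and, with Seurat, kept, normalised and clustered nuclei, and named the clusters. The deposited table of 21457 genes by 16042 cholinergic nuclei holds SCTransform-corrected counts, treated here as a score because they are whole numbers but no longer raw reads, so count models were not used and depth was partly evened out. Other nuclei were not analysed here. How doublets were treated is not given in the sources used here, and no doublet caller was run on the corrected counts.

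Values were summed over nuclei per library and class or cluster (at least 10 nuclei) and scaled to CPM. Genes with at least 10 CPM in 3 or more sums were fitted with limma 3.58.1 (trend) in R 4.3.3 on log2(CPM + 5), with adjusted p under 0.05 as the threshold. Class, type and interaction fits had a term for the library, pool fits had a term for the region, and region fits had neither. Neighbouring clusters, shares and differences between genes were compared with exact sign-flip tests over libraries, and regions within clusters with exact permutation tests (scipy 1.17.1). The same pool of mice gave the 3 regions of a replicate number, so numbers pair the libraries across regions, and over 27 pairs the correlation of deviations from the group means ran from -0.22 to 0.92, with 21 over 0.1. Libraries of 1 pool are not independent animals. The scripts were tested on simulated data. The 5 genes and all gene lists were chosen with earlier results of these data known. Of the lists, the 5 genes were named throughout, partner genes by a log2 difference of at least 1, and similar genes as the 3 with the highest r. The endothelial list lacked Cldn5 and held at most 6.33 CPM, astrocyte markers held at most 7.17 CPM and microglia markers 21.9 to 147.8 CPM over the classes. Excitatory markers held at most 15.7 CPM, and inhibitory markers 17.7 to 69.7 CPM in MNs and 241 to 310 CPM in interneurons. Chodl, listed for skeletal MNs, did not mark them (13.2 CPM, against 21.9 CPM in visceral MNs). Alternatives are given under the closing observations.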

Additional observations from a re-analysis of the deposited data

Results flagged for a closer look

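Of 115 groups of 4 to 9 libraries in a class or cluster, 13 had a highest or lowest library far from the rest, where chance gives about 5%. In cervical replicate 3, Nefm was low in skeletal MNs (219 CPM) and in S3 (246 CPM), Nefh was low in S3 (35.8 CPM) and Nefh was high in I6 (24 CPM). In S2 of the library labelled cervical replicate 2, Ina was high (72.6 CPM). In lumbar/sacral replicate 2, Nefh was high in visceral MNs (34.2 CPM) and in V3 (52.9 CPM), Nefl was high in S2 (222 CPM) and Ina was high in V6 (191 CPM, on 10 nuclei). In lumbar/sacral replicate 1, Nefh was high in V6 (64.8 CPM, on 13 nuclei). In the library labelled thoracic replicate 2, Nefl was high in V1 (212 CPM) and Nefm was high in I8 (86.2 CPM). In cervical replicate 1, Prph was high in I2 (13.2 CPM).

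The regional effect on Prph differed between the classes, by 1.30 on the log2 scale for skeletal minus visceral MNs (limma, adjusted p = 0.000467). It ran from 1.16 to 1.43 when each library was left out.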

How the results depend on the processing

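The class differences kept their direction under all alternatives run: pseudocounts of 1 and 20, no filter on low values, scaling by the median of ratios, at least 30 nuclei a sum, no library term, each library left out in turn and, chosen after seeing the data, both libraries that went against their labels left out. Scaling by the median of ratios ended the call of Ina between visceral MNs and interneurons (0.13, adjusted p = 0.108). Without the library term, that is without the replicate block, values stayed and errors grew, so calls were lost for Nefl between skeletal and visceral MNs (0.26, adjusted p = 0.373), Ina between visceral MNs and interneurons (0.19), Nefl (0.37), Nefm (0.53) and Ina (-0.60) between S2 and S1, where 1 gene of the 5 remained called, Nefl between S1 and S3 (-0.38) and Prph in the class and region interaction (1.30), where 0 remained called. All genes called then fell from 5803 to 3586 between visceral MNs and interneurons and from 2908 to 1930 between S2 and S1. With the pool as a replicate block, 1 of the 5 genes (Prph) was called between lumbar/sacral and rostral visceral MNs, with 737 of all genes against 428, and the block changed no other call of the 5 genes. Without V8 the latter count was 173.

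When each library was left out in turn, Nefh between visceral MNs and interneurons ran from 0.15 to 0.26, Nefl between S2 and S3 from -0.074 to 0.072, Nefh between S2 and S3 from 0.075 to 0.33, with 1 to 2 genes called there, Ina between S2 and S1 from -0.83 to -0.49, Prph between S2 and S1 from 0.0091 to 0.33 and Prph between S1 and S3 from -0.41 to -0.34. All genes called then ran from 3051 to 4994 between S2 and S3, from 2414 to 4286 between S2 and S1 and from 1995 to 2829 between S1 and S3. Between the female and male pools, 0 to 3 of the 5 genes were called in skeletal MNs, 0 to 2 in visceral MNs and 0 to 3 in interneurons, the highest without cervical replicate 2 or 3, while all genes called ran from 0 to 1329, 0 to 425 and 0 to 1331. Nefl between S2 and S3 turned sign with at least 30 nuclei a sum (0.050) and without both libraries that went against their labels (0.06). Without these libraries, 2 genes were called between S2 and S3 (Nefh at 0.39), and Prph between S2 and S1 (0.33) and between S1 and S3 (-0.39) was called too. Of 30 comparisons of shares 19 were called, and 0 to 23 when each replicate number was left out, where 6 libraries allow no exact p below 0.0312. Of 45 regional differences of single genes not given in the text, 19 changed sign under an alternative and 0 were called. Ordering clusters by counts per nucleus gave a Spearman rho with the order by CPM of 0.858 for Ina and 0.956 to 0.992 for the others. The cause of these changes was not tested. Precision is limited by 3 pools, by small clusters and by low counts, above all for Prph in interneurons.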
